A study of Mus musculus with 176 samples.

Results

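The 7 receptor genes Il2ra, Il2rb, Il2rg, Il7r, Il4ra, Il21r and Il15ra, taken from 53546 gene names counted in single CD4 T cells, were chosen by name as receptors of the common gamma chain family and not by a measured value. Il2rg encodes the common gamma chain (CD132), which pairs with a chain that recognizes the cytokine. The interleukin-2 receptor is built from CD25 (Il2ra), which raises affinity but does not signal, CD122 (Il2rb), which interleukin-15 also uses, and the common chain. CD127 (Il7r), the interleukin-7 receptor, serves the survival of naive and memory T cells. The chains encoded by Il4ra and Il21r bind interleukin-4 and interleukin-21, and the product of Il15ra usually presents interleukin-15 to neighbouring cells. Signals pass through Jak1 and Jak3 to Stat proteins, mainly Stat5 for interleukin-2, interleukin-7 and interleukin-15, Stat6 for interleukin-4 and Stat3 for interleukin-21. Regulatory T cells, defined by the transcription factor Foxp3, are known for high CD25 and low CD127.

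The cells came from lymph nodes of 1 female C57BL/6J mouse, an inbred strain, immunized with the ApoB peptide P6 in complete Freund's adjuvant at 7 weeks of age and in incomplete adjuvant at 9 weeks, and killed at 11 weeks. P6+ cells bound tetramers of P6 with the MHC class II molecule I-Ab in both colours used, and P6- cells were antigen-experienced CD4 T cells (CD44hi) that did not bind. Cells were incubated with dasatinib, and an antibody to CD25 was in the stain. After limits of 500000 reads, 2000 genes and 10% mitochondrial reads, all 32 P6+ cells and all but 15 of the P6- cells remained. The study also discarded cells by their mapping rate, a limit not applied here, so every P6- value includes P6- cells that the study left out. Foxp3 was at 10 or more reads in 11 P6+ and 19 P6- cells and at fewer in 21 P6+ and 110 P6- cells, and percentages of P6- cells below are of those 19 and 110 cells jointly unless Foxp3 is named. Since all cells came from 1 mouse, a group of cells was 1 sample, no test between groups was possible, and differences describe these cells alone.

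The division by Foxp3 was made on measured reads, so Foxp3 itself is no result. Just outside the limit the highest cell held 4 reads, and just inside it the lowest P6+ cell held 22 and the lowest P6- cell 37. P6+ cells held 956280 to 3332191 reads and passing P6- cells 522188 to 3401372. T cell marker genes were at 10 or more reads in all 32 P6+ cells and in all but 2 P6- cells. Cd8a was at 10 reads in 0 cells, Cd8b1 in 2 P6- cells, and the 6 myeloid markers in 0 cells. Cd79b, a B cell receptor component, was at 10 or more reads in 2 P6+ cells, both with Foxp3, and Ebf1 in 2 P6- cells. Nkg7, a granule gene of natural killer and cytotoxic cells, led the natural killer list, of which 8 P6+ and 8 P6- cells held a gene at 10 or more reads, while Ncr1 was at 0. The names of all 32 P6+ cells carried the prefix 6, together with 11 passing P6- cells, so that with the other P6- cells tetramer and prefix cannot be told apart.

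Positions are those of GENCODE annotation of GRCm38, and counts cover exons. Il2ra (chr2:11642807-11693193, + strand) and Il15ra (chr2:11705290-11734317, + strand) are neighbours separated by 12096 bases, and Il4ra (chr7:125552120-125579474, + strand) and Il21r (chr7:125603429-125633570, + strand) are separated by 23954 bases. Il2rb (chr15:78479256-78495271, - strand) and Il7r (chr15:9505788-9530176, - strand) lie far apart on chromosome 15, and Il2rg (chrX:101264378-101268255, - strand) lies on the X chromosome. Exons of Il2rg overlap those of Gm20489 on the same strand, and exons of Il4ra overlap those of Gm44876 on the other strand, so reads there are uncertain between the genes.

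Il2ra showed the widest gap in share of cells by Foxp3 of the 7 receptors, and the 250 bases before its start (RefSeq, GRCm38.p6, chr2:11642542-11642791, + strand) are shown for that reason. Capitals mark the match to GGGANNNCC, letters of a site of the NF-kappaB type.
Il2ra: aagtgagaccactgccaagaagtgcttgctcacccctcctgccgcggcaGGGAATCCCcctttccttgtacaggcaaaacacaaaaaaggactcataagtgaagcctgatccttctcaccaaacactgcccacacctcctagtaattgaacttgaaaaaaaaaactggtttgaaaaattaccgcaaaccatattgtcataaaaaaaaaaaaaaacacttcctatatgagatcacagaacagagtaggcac
Of the 7 genes, 6 were in the promoter table, and both strands of the 250 bases were searched. GGGANNNCC occurred in Il2ra (GGGAATCCC) and Il7r (GGGAATACC), against 15.8% of all 32851 promoters. The Stat-type letters TTCNNNGAA occurred in Il7r (TTCAGGGAA, 7.02% of promoters), the forkhead-type letters TGTTTAC in Il21r (3.17%) and the AP-1-type letters TGANTCA in Il15ra (TGAGTCA, 6.75%), each in 1 of the 6. The 2 matches in Il7r overlap each other. A match describes letters and not an occupied site.

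Reads of a receptor were either plentiful or nearly missing in a cell. Il7r was at 50 or more reads in 47 of the 161 passing cells, at 10 to 49 in 0 and at 1 to 9 in 60, and Il2ra stood at 30, 1 and 38 cells in the same classes. Cells under 10 reads held 0.171% of all Il2ra reads, and at most 0.206% for any of the 7 genes. A cell was therefore taken to hold a receptor at 10 or more reads, and levels are pooled reads of a group per 1000000 of its reads (cpm). The 95% intervals are exact Poisson intervals for levels and exact binomial (Clopper-Pearson) intervals for shares of cells. As Smart-Seq2 has no molecular identifiers, the Poisson intervals describe counting of reads, and not of molecules or the spread between cells. The binomial intervals treat cells as independent draws, which cells of 1 mouse may not be. Overlap of intervals between groups is therefore a description and no test. At 50 reads in place of 10, all 42 shares of a gene in a group stayed within their intervals.

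**Figure D1:**
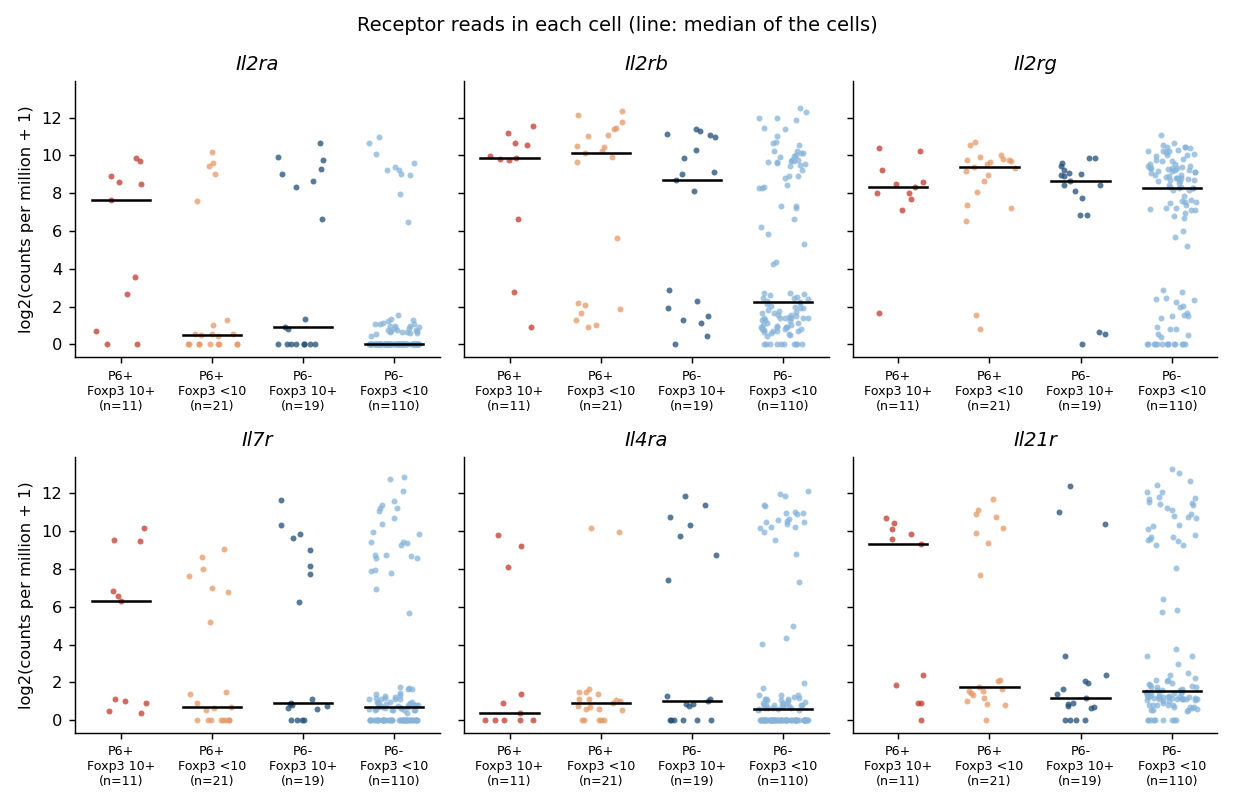
Each point is 1 passing cell, with log2(cpm + 1) of the receptor on the vertical axis and the 4 groups by tetramer and Foxp3 reads on the horizontal axis. Lines are medians over cells. Cells fell into an upper and a lower cloud for each receptor drawn, and Il15ra, at 10 or more reads in 2 cells, is not drawn.

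In pooled level per kilobase of exon, Il2rb, Il2rg and Il21r were the more abundant receptors in both groups. In P6+ cells the pooled level in reads per kilobase per 1000000 was 298 for Il2rb, 249 for Il2rg and 202 for Il21r, followed by Il2ra at 34.3, Il7r at 28.9, Il4ra at 21.9 and Il15ra at 3.37. In P6- cells the order was Il21r at 207, Il2rg at 186, Il2rb at 121.3, Il7r at 83.8, Il4ra at 72.7, Il2ra at 20.1 and Il15ra at 0.0916. In pooled level Il2rb thus stood above Il2rg and Il21r in P6+ cells and below both in P6- cells. Il2ra stood above Il7r and Il4ra in P6+ cells and below both in P6- cells. Medians over cells gave other orders. They were 230 and 0.990 for Il2rb, 225 and 136.5 for Il2rg and 0.997 and 0.556 for Il21r in P6+ and P6- cells. A minority of cells held Il21r in both groups (43.8% of P6+ and 30.2% of P6- cells) and Il2rb in P6- cells (44.2%). The pooled levels of these receptors there thus came from a minority of cells. In P6+ cells the median of Il2ra (0.0974) lay below those of Il7r (0.241) and Il4ra (0.130). Neighbours in these orders were not tested against each other.

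A larger share of P6+ than P6- cells held each receptor except Il4ra, and the intervals of the shares overlapped for all receptors but Il2rb. More genes were also detected in P6+ cells (medians of 4396 and 3432). Il7r and Il4ra were lower in pooled level in P6+ cells. Against P6- cells, 2 of the 7 receptors were at least 2-fold higher (Il2rb and Il15ra), where 24.1% of the 9809 genes with 5 cpm in the higher group were, and 2 were at least 2-fold lower (Il7r and Il4ra), where 32.1% of these genes were. The median log2 ratio of the 7 receptors was 0.42, beside -0.12 over all genes compared. The counts are near the shares over all genes, so the values of the members, and not the counts, are the description.

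Il2rb ranged from 0.907 to 5159 cpm in the 32 P6+ cells (median 985) and from 0 to 5926 cpm in P6- cells (median 4.25). The clouds overlapped, but 23 of 32 P6+ cells (71.9%, interval 53.3 to 86.3%) and 57 P6- cells (44.2%, 35.5 to 53.2%) held the gene. Its pooled level was 1277 cpm (1268 to 1286) against 520 cpm (517 to 523), a log2 ratio of 1.30. Among the cells that held it, the median was 1444 against 843 cpm, so both the share and the level in those cells were higher. The ratio was 0.69 against the 11 P6- cells with prefix 6, of which 5 held the gene.

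Il2ra ranged from 0 to 1178 cpm in P6+ cells (median 0.556) and from 0 to 1979 cpm in P6- cells (median 0). It was held by 12 of 32 P6+ cells (37.5%, 21.1 to 56.3%) and 19 P6- cells (14.7%, 9.11 to 22.0%). The pooled level was 196 cpm (192 to 199.5) against 114.7 cpm (113.2 to 116.2), a log2 ratio of 0.77, under 2-fold. A single P6+ cell, P6_2, held 29.7% of the P6+ reads, and without it the P6+ level was 145 cpm. The level in the cells that held it was no higher in P6+ cells, with medians of 506 and 607 cpm.

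Il2rg, the shared chain, was the most widely held receptor in both groups, by 29 of 32 P6+ cells (90.6%, 74.98 to 98.02%) and 94 P6- cells (72.9%, 64.3 to 80.3%). It ranged from 0.741 to 1679 cpm (median 537) in P6+ cells and from 0 to 2195 cpm (median 326) in P6- cells. The pooled levels of 594 and 443 cpm gave a log2 ratio of 0.42.

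Il7r had a lower pooled level in P6+ cells although a larger share of them held it. It ranged from 0 to 1145 cpm in P6+ cells (median 1.12) and from 0 to 7575 cpm in P6- cells (median 0.703), and its pooled level was 134.6 cpm (131.7 to 137.6) against 391 cpm (388 to 393), a log2 ratio of -1.53. It was held by 13 of 32 P6+ cells (40.6%, 23.7 to 59.4%) and 34 P6- cells (26.4%, 18.99 to 34.8%), with overlapping intervals. In the cells that held it the median was 196 cpm in P6+ and 685 cpm in P6- cells. Of the 34 P6- cells, 12 lay above the highest P6+ cell, and 10 of the 13 P6+ cells lay below the P6- median. The lower pooled level came with lower levels in the cells that held the gene and not with a smaller share of them. In the 11 P6- cells with prefix 6 a single cell, P6_39, held 89.8% of the Il7r reads, so the ratio of -1.93 against them rests on that cell.

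Lef1 and Ccr7, genes of naive cells, were also lower in P6+ cells. Lef1, a transcription factor of naive cells, was at 11.7 and 270 cpm (-4.41) and Ccr7, a lymph node homing receptor, at 823 and 2612 cpm (-1.66). The P6- cells had been sorted as antigen-experienced, a gate that should remove naive cells, and the part of such cells in the Il7r difference was not tested. Of the 6 transcription factors linked to Il7r, 5 had 5 cpm and 0 were past 2-fold, where 24.1% of genes were higher and 32.1% lower. Foxo1, which activates Il7r, was at 202 and 309 cpm.

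Il4ra was lower in P6+ cells in share, in pooled level and in the cells that held it. It was held by 5 of 32 P6+ cells (15.6%, 5.28 to 32.8%), at 275 to 1165 cpm, and by 32 P6- cells (24.8%, 17.6 to 33.2%), at 15.3 to 4432 cpm. The intervals of the shares overlap. The medians over holding cells were 877 and 1424 cpm, and 21 of the 32 P6- cells lay above the highest P6+ cell. The pooled level was 131.2 cpm (128.3 to 134.2) against 436 cpm (433 to 439), a log2 ratio of -1.73, and P6_2 held 43.9% of the P6+ reads. The ratio was -0.79 against P6- cells of prefix 6, of which 2 of 11 held the gene.

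**Figure D2:**
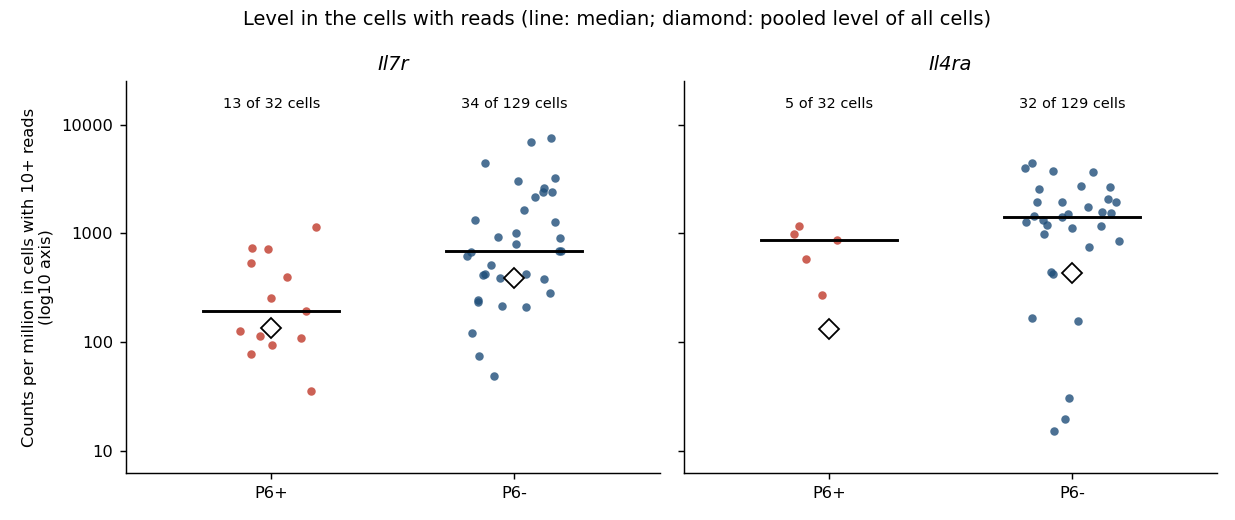
Level in cpm on a log10 axis in the P6+ and P6- cells that held 10 or more reads of Il7r or Il4ra. Lines are medians over these cells and diamonds the pooled level of all cells. For Il7r a larger share of P6+ cells held reads (40.6% against 26.4%), but at a lower median (196 against 685 cpm), while Il4ra was lower in both.

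Il21r was nearly equal in pooled level, with 672 cpm (665 to 678) in P6+ and 689 cpm (685 to 693) in P6- cells, a log2 ratio of -0.04. It ranged from 0 to 3265 cpm in P6+ cells (median 3.32) and from 0 to 9891 cpm in P6- cells (median 1.85). It was held by 14 of 32 P6+ cells (43.8%, 26.4 to 62.3%) and 39 P6- cells (30.2%, 22.5 to 38.9%), at medians of 1119 and 1745 cpm in those cells. Il15ra was a gene of 2 cells. All 888 of its P6+ reads were in the cell P6_44, at 533 cpm, and the P6- cell P3_15 held 97.6% of the P6- reads, at 46.2 cpm, so its log2 ratio of 3.50 describes 1 cell. P6_44 also held 905 reads of Cd79b (543 cpm). Without the cells with CD8, B cell or myeloid genes the ratio of Il15ra was -0.50, and the part of that marker in the result was not tested.

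Il2ra was held by a larger share of the cells with Foxp3 in both tetramer groups. Over all 161 cells, 2 receptors were at least 2-fold higher with Foxp3 (Il2ra and Il15ra, the latter from P6_44), where 22.3% of genes were, and 0 were lower, where 33.5% were. Il2ra was held by 15 of 30 cells with Foxp3 (50%, 31.3 to 68.7%) and by 16 cells without (12.2%, 7.15 to 19.1%), and its pooled level was 283 cpm against 99.8 cpm, a log2 ratio of 1.49. That ratio was under 2-fold with Foxp3 divided at 1 read (0.87) and among cells of prefix 6 (0.95). Il2rb was held by 66.7% and 45.8% of cells, Il7r by 46.7% and 25.2% and Il4ra by 33.3% and 20.6%, with log2 ratios of the pooled level of 0.58, -0.17 and 0.07. The share of cells with Il7r was thus no smaller with Foxp3.

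Within P6- cells, Il2ra was past 2-fold higher with Foxp3 and 0 receptors were lower, where 23.2% and 40.7% of genes were, and Il15ra was under 5 cpm in both groups. Il2ra ranged from 0 to 1633 cpm in the 19 cells with Foxp3 (median 0.903) and from 0 to 1979 cpm in the 110 without (median 0). It was held by 8 of 19 (42.1%, 20.3 to 66.5%) and 11 of 110 (10%, 5.10 to 17.2%), and the pooled level was 288 cpm (282 to 294) against 85.3 cpm (83.9 to 86.7), a log2 ratio of 1.74. In the cells that held it the medians were 571 and 607 cpm, so the higher level came with a higher share. The cell P3_74 held 27.2% of the Il2ra reads and 32.6% of the Il4ra reads with Foxp3, and P9_11 held 39.6% of the Il7r reads. Il2rb was at 819 and 469 cpm (0.80), Il4ra at 549 and 417 cpm (0.39), Il7r at 343 and 399 cpm (-0.22) and Il2rg at 430.0 and 446 cpm (-0.05).

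Il21r in P6- cells was at 598 cpm with Foxp3 and 704 cpm without (-0.23), and was held by 4 of 19 and 35 of 110 cells. A single cell, P9_74, held 62.9% of its reads with Foxp3, and without the cell with most reads in each group the log2 ratio was -1.34. Of the 19 P6- cells with Foxp3, 11 held Il2rb and 4 held Il21r, and 0 held both (a count of 0 allows up to 17.6% by the exact interval). In P6+ cells with Foxp3, all 6 cells with Il21r also held Il2rb, which 9 of all 11 held. Foxp3, on which the cells were divided, is left out of the regulatory T cell genes here. In P6- cells with Foxp3, Ikzf2, Capg, Lrrc32, Tnfrsf9, Ctla4, Tnfrsf18, Tnfrsf4 and Ikzf4 were at least 2-fold higher. Icos and Tigit were within 2-fold, and Gpr83 and Nrp1 lower, where 23.2% of genes were higher and 40.7% lower. Ikzf4 was at 10 or more reads in 1 of 19 and 6 of 110 cells. In P6+ cells with Foxp3, Nrp1 (3.96, in 1 of 11 cells), Capg (1.94) and Icos (1.17) were higher and Lrrc32 (-1.34) lower. There 28.7% of genes were higher and 38.4% lower. The difference between the tetramer groups was not tested. In P6- cells, besides Foxp3, Ikzf2 (Helios) was higher by 3.64 and Capg, an actin-capping protein gene, by 2.41 on the log2 scale. Gpr83 (-6.29) and Nrp1 (-2.75) were lower, but Gpr83 was at 10 or more reads in 0 of 19 and 1 of 110 cells and Nrp1 in 1 and 6. Of the kinases and Stats in P6- cells, Tyk2 (2.88) and Jak3 (1.25) were higher and 0 of 8 lower, beside 23.2% and 40.7% of genes.

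Within P6+ cells, Il7r and Il15ra were past 2-fold higher with Foxp3, where 28.7% of genes were, and 0 receptors were lower, where 38.4% were. Il7r was at 234 cpm (227 to 241) in the 11 cells with Foxp3 and at 90.8 cpm (87.9 to 93.7) in the 21 without, a log2 ratio of 1.35. Its values ranged from 0.317 to 1145 cpm with Foxp3 (median 77.8) and from 0 to 531 cpm without (median 0.637), so the groups overlapped. It was held by 6 of 11 (54.5%, 23.4 to 83.3%) and 7 of 21 cells (33.3%, 14.6 to 56.97%). P6_19 held 39.6% of the Il7r reads with Foxp3 and P6_2 held 31.05% of those without. The ratio was 1.25 without the cell with most reads in each group and 1.04 with Foxp3 divided at 1 read.

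Il2ra in P6+ cells was held by 7 of 11 with Foxp3 (63.6%, 30.8 to 89.1%) and 5 of 21 without (23.8%, 8.22 to 47.2%), at a pooled 274 against 161 cpm (0.76). Its values ranged from 0 to 931 cpm (median 200.6) and from 0 to 1178 cpm (median 0.426). In each of these groups 1 cell held nearly as much as the others together or more, with 47.7% of the reads in P6_51 and 52.1% in P6_2, and without these cells the levels were 167 and 83.2 cpm. P6_51 held 22 reads of Foxp3, and the log2 ratio of Il2ra turned to -0.30 with Foxp3 divided at 50 reads and to -0.56 at 1 read, while it was 1.21 without the cells with CD8, B cell or myeloid genes. Il2rb (1161 and 1329 cpm), Il2rg (466 and 651 cpm), Il4ra (111.9 and 139.8 cpm) and Il21r (685 and 666 cpm) were within 2-fold. Single cells weighed on these levels too, as P6_51 held 36.1% of the Il2rb and 28.4% of the Il21r reads, P6_19 36.6% of the Il2rg reads and P6_57 47.6% of the Il4ra reads with Foxp3. Without Foxp3, P6_2 held 59.4% of the Il4ra and P6_28 32.2% of the Il21r reads.

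The log2 ratio of Il7r by Foxp3 was 1.35 in P6+ and -0.22 in P6- cells, and whether these differ was not tested. Of the kinases and Stats, 4 of 8 were at least 2-fold lower with Foxp3 in P6+ cells (Tyk2, -4.13, and Jak2, -2.26, the furthest) and 0 higher, where 38.4% and 28.7% of genes were, with a median of -1.47 beside -0.28 over all genes. With and without Foxp3, Jak2 was held by 4 of 11 and 6 of 21 cells, Stat5a by 7 and 11, Stat5b by 5 and 11 and Tyk2 by 1 and 4.

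**Figure D3:**
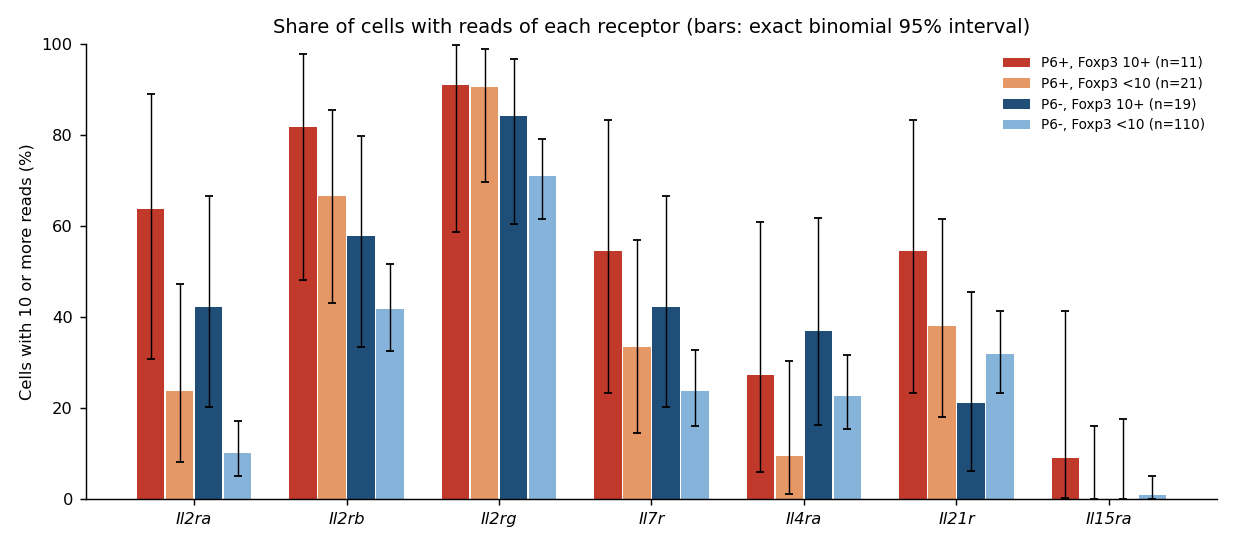
Percentage of cells with 10 or more reads of each receptor in the 4 groups by tetramer and Foxp3 reads, with exact binomial 95% intervals as black lines. Il2ra was held by 63.6% and 42.1% of cells with Foxp3 and by 23.8% and 10% of those without, in P6+ and P6- cells respectively.

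The tetramer groups were then compared at like Foxp3 state. In cells with fewer than 10 Foxp3 reads, Il2rb was higher in P6+ cells (1329 against 469 cpm, in 14 of 21 against 46 of 110 cells), and Il7r (90.8 against 399 cpm, -2.12) and Il4ra (139.8 against 417 cpm, -1.57) were lower. These were 1 receptor higher and 2 lower, where 24.9% and 36.9% of genes were. Il2ra was at 161 and 85.3 cpm (0.91), and was past 2-fold with means over cells (1.02), thinned cells (1.04) and Foxp3 divided at 1 read (1.70) or 50 reads (1.27), but 0.24 without the cell with most reads in each group. Against the 8 P6- cells of prefix 6 without Foxp3, Il4ra was at 6.86, Il2ra at 6.95, Il2rb at 0.77, Il21r at 2.09 and Il7r at -3.19, beside a median of 2.18 over all genes. As these 8 cells held almost no reads of Il4ra or Il2ra, the pseudocount sets both of those ratios. In cells with Foxp3, Il15ra was higher from P6_44, where 33.4% of genes were, and Il4ra was lower (111.9 against 549 cpm, -2.28, in 3 of 11 against 7 of 19 cells), where 36.8% were. There Il2ra was at 274 and 288 cpm (-0.07), Il2rb at 1161 and 819 cpm (0.50) and Il7r at 234 and 343 cpm (-0.55). Il21r was at 685 and 598 cpm (0.20, in 6 of 11 and 4 of 19 cells), and past 2-fold higher without the cell with most reads in each group (571 and 239 cpm, 1.25). Whether the tetramer differences depend on Foxp3 was not tested.

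A larger share of P6+ than P6- cells held the chains of the interleukin-2 receptor together, as it did each chain alone. All 3 chains were held by 10 of 32 P6+ cells (31.2%, 16.1 to 50.01%) and 13 P6- cells (10.1%, 5.48 to 16.6%). With Foxp3 these were 6 of 11 and 6 of 19 cells, and without it 4 of 21 and 7 of 110. Both signalling chains, Il2rb and Il2rg, were held by 21 of 32 P6+ (65.6%) and 49 P6- cells (37.98%), and neither Il2ra nor Il2rb by 7 and 66 cells. All 13 P6+ cells with Il7r and all 5 with Il4ra also held Il2rg, whereas 8 of 34 P6- cells with Il7r and 6 of 32 with Il4ra did not, beside 90.6% and 72.9% of all P6+ and P6- cells that held Il2rg. Of P6+ cells, 3 of 14 with Il21r and 2 of 23 with Il2rb did not hold it. P6_2, the P6+ cell with the most Il2ra, held 3 reads of Il2rb beside 3455 of Il2ra, 2611 of Il2rg, 1160 of Il7r and 3417 of Il4ra.

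Of the 7 receptors, P6+ cells held a median of 3 (1 to 6) and P6- cells of 2 (0 to 5), and 11 P6- cells held 0. A median of 4396 genes was detected in P6+ cells and of 3432 in P6- cells. With every cell thinned to 522186 reads, Il2ra was held by 11 P6+ and 19 P6- cells and Il2rb by 23 and 54, close to the values before thinning. The part of the number of genes detected in these shares was not tested.

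The P6+ cells were also divided by Trbv13-2, a variable segment of the T cell receptor beta chain. It was at 10 or more reads in 16 cells and at fewer in 16. The study reported this segment in the beta chain of its major expanded clone. Cells with the segment may therefore share a clone and are not independent, which the intervals below do not allow for. Clones were not called here, so the part of the clone in these differences was not tested. Il2ra, Il7r and Il4ra were past 2-fold higher with the segment, where 35.9% of genes were, and Il15ra was lower through P6_44, where 33% were. Il2ra was held by 10 of 16 (62.5%, 35.4 to 84.8%) and 2 of 16 cells (12.5%, 1.55 to 38.3%), at 319 against 68.8 cpm (2.19). Il7r was held by 11 of 16 (68.8%, 41.3 to 88.98%) and 2 of 16, at 214 against 51.99 cpm (2.02), and Il4ra by 4 of 16 and 1 of 16, at 181 against 79.9 cpm (1.17). Il2rb (1289 and 1265 cpm) and Il2rg (591 and 598 cpm) were nearly equal. Il21r was at 520 and 829 cpm. P6_2 held 35.9% of the Il2ra and 62.6% of the Il4ra reads with the segment, while without it P6_18 held 53.4% of the Il2ra, P6_59 73.5% of the Il7r and P6_12 99.1% of the Il4ra reads. Without the cell with most reads in each group, Il2ra was at 226 and 33.9 cpm, Il7r at 171 and 14.9 cpm and Il4ra at 74.9 and 0.821 cpm.

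Foxp3 moved with this division, at 10 or more reads in 9 of the 16 cells with the segment and 2 of the 16 without. Among the cells with the segment, Il7r was held by 6 of 9 with Foxp3 and 5 of 7 without, and Il2ra by 7 of 9 and 3 of 7. Of the 14 cells with neither, 2 held Il7r and 2 held Il2ra. Il2ra and Il7r were found together in 7 of 16 cells with the segment and 0 of 16 without (a count of 0 allows up to 20.6%). Il21r was held by 7 of 16 cells on each side, but among cells with the segment by 6 of 9 with Foxp3 and 1 of 7 without. Of the kinases and Stats, 6 of 8 were at least 2-fold lower with the segment, led by Stat5a (-3.21) and Tyk2 (-3.19), and Jak3 was higher (1.35), where 33% and 35.9% of genes were. Stat5a was held by 9 of 16 cells on each side and Tyk2 by 2 and 3, and the part of the division by Foxp3 in these values was not tested.

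**Figure D4:**
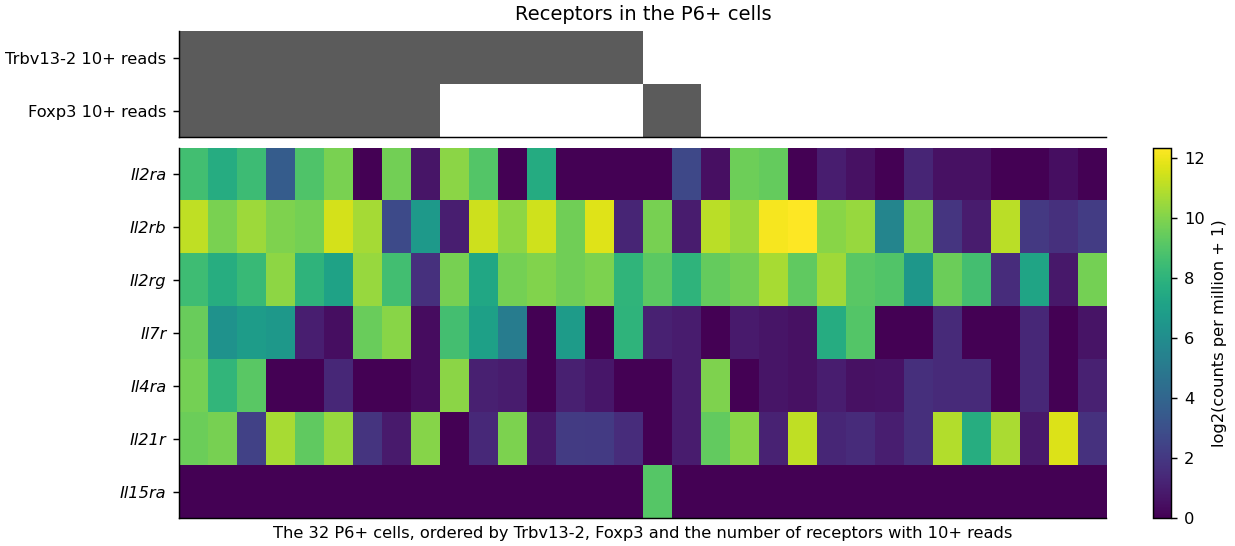
Each column is 1 of the 32 P6+ cells and each row of the lower panel a receptor, coloured by log2(cpm + 1). Dark bars in the upper panel mark cells with 10 or more reads of Trbv13-2 or Foxp3. Il2ra and Il7r lie mostly in the left 16 cells, with Trbv13-2 (10 and 11 cells, against 2 and 2), while Il2rb and Il2rg run across both sides.

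Among the genes that carry the receptors' signal, the kinases and Stats were within 2-fold between all P6+ and all P6- cells. Of Jak1, Jak2, Jak3, Tyk2, Stat3, Stat5a, Stat5b and Stat6, 0 of 8 were past 2-fold, where 24.1% of genes were higher and 32.1% lower. Their median log2 ratio was 0.03, beside -0.12 over all genes. In cells with Foxp3, 4 of 8 were at least 2-fold lower in P6+ cells, where 36.8% of genes were, a count near that share, with Tyk2 (-5.21, in 1 of 11 and 4 of 19 cells) and Stat5b (-2.17) the furthest. In cells without Foxp3, 1 of 8 was higher (Tyk2, 1.80, in 4 of 21 and 5 of 110 cells) and 0 lower, where 24.9% and 36.9% of genes were. Of the 13 feedback and response genes, 4 were higher and 4 lower, near the 24.1% and 32.1% over all genes, with a median of 0.10. The highest were Socs2 (122.7 against 30.3 cpm, 1.98, in 7 P6+ and 3 P6- cells) and Cish (178 against 46.1 cpm, 1.93, in 11 P6+ and 10 P6- cells), both Stat5-induced inhibitors of cytokine signalling. Bcl2, a survival gene of interleukin-7 signalling, was lower (0.0843 against 73.99 cpm, in 0 P6+ and 5 P6- cells), as was Sh2b3, an adaptor that restrains Jak signalling (1 read in P6+ cells, and 10 or more in 8 P6- cells). Pim1, a Stat5-induced kinase, was held by 30 of 32 P6+ and 55 P6- cells, at 309 against 93.3 cpm (1.72). Socs3, a feedback inhibitor, was lower (71.5 against 379 cpm, -2.39, in 2 P6+ and 32 P6- cells). Pim1 and Socs3 were singled out after their values were seen. Against the P6- cells of prefix 6 alone, Stat5a was past 2-fold higher (1.24) and Tyk2 lower (-1.81), while Cish (0.74), Bcl2 (-0.14) and Sh2b3 (-0.15) were within 2-fold.

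The ligands were almost silent. Of the 8 listed, Il4 alone reached 5 cpm, from 1 P6- cell, and P6+ cells held 0 reads of it, while Il2 was at 10 or more reads in 0 P6+ and 3 P6- cells. Of the other receptor chains, Crlf2, which pairs with Il7r in the receptor for TSLP, was higher in P6+ cells (148 against 49.6 cpm, 1.56, in 14 P6+ and 20 P6- cells). Il9r was at 10 or more reads in 1 P6- cell and Il13ra1 had 0 reads. Of the regulatory T cell genes, 4 of 13 were higher (Ikzf4, 2.33, and Tnfrsf9, 1.81, the furthest) and 2 lower (Gpr83, -6.05, and Nrp1, -3.10), beside 24.1% and 32.1% over all genes, with a median of 0.66. Gpr83 was at 10 or more reads in 1 P6- and 0 P6+ cells, so its ratio rests on 1 cell. Against the P6- cells of prefix 6 it was -0.10, and Nrp1 turned to 2.62, from 1 P6+ cell.

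Across the 161 cells the receptors followed each other weakly, with Spearman's rho of at most 0.26 between any pair (Il2ra with Il2rb and with Il4ra). The genes most like Il2rb among 1775 compared were Tnfrsf18 (0.42), Tnfrsf4 (0.41) and Tnfrsf9 (0.40), receptors of the TNF family. Il21r was closest to Vdac2 (0.42), Nfkb1 (0.32) and Dek (0.27), and Il2rg to Ly6e (0.34), Cfl1 (0.32) and Lcp1 (0.32). Il4ra was closest to Gm14519 (0.31), Gabarap (0.29) and Ms4a6b (0.29), and Il7r to the genes Gm6055 (0.28), 4933434E20Rik (0.28) and Ighm (0.26). The cells share 1 mouse and differ in depth, so these values are descriptions.

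P6- cells also varied among the 8 prefixes of their names. The share of cells with Il2ra ranged from 5 to 33.3% and with Il2rb from 16.7 to 55%, and the pooled level of Il7r from 141.3 to 801 cpm and of Il21r from 6.29 to 1105 cpm. Against the P6- cells of prefix 6 alone, 2 receptors were past 2-fold higher (Il2ra, 1.37, held by 1 of those 11 cells, and Il15ra) and 1 lower (Il7r), where 51.8% and 23.1% of genes were, and the median of all genes was itself 1.20.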

How the data were processed

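Single cells sorted by tetramer were sequenced by Smart-Seq2. The authors mapped reads to GRCm38 with STAR 2.6.0a and deposited raw counts per gene, not normalized, in a table of 53647 rows. It held 53546 gene names, and rows of the 81 repeated names were averaged. Cells with 500000 reads, 2000 genes and under 10% mitochondrial reads were kept. The limit the study also set on the total mapping rate was not applied, as mapping rates were not used here, so more P6- cells were kept than in the study. No doublet caller was run on these sorted wells. Cells of 1 mouse are not replicates, so the reads of each group were pooled and written as cpm. Log2 ratios took a pseudocount of 1 cpm, and genes with 5 cpm in the higher group were compared at 2-fold, so all values are descriptions with no test. The sums were tested on simulated data.

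The members and gene lists were chosen with earlier results of these data known. Of the lists described in a comparison, the 2 genes furthest in each direction past 2-fold were named. For the regulatory T cell genes by Foxp3, all genes past 2-fold were named. For each receptor held by 20% of cells, the 3 genes with the highest Spearman's rho of log2(cpm + 1) were named. The cell with most reads of a receptor was to be named where it held over 25% of a group's reads. TMM factors of edgeR 4.0.16 and size factors of DESeq2 1.42.0 served as alternative scalings of the pooled counts. The other alternatives were the cell filter, the Foxp3 limit, means over cells, thinning, the pseudocount, the prefix, repeated names, single cells with most reads and cells with genes of other types. Restricting to cells with T cell markers was added after seeing the data. Python 3.11.15, pandas 2.3.3 and scipy 1.17.1 were used. Promoters came from the RefSeq table, which lacked Il2rb. A gene of the naive list, and values that need it, are not reported here.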

Additional observations from a re-analysis of the deposited data

How the results depend on the processing

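Of 86 counts of receptors past 2-fold under an alternative, 79 stayed within 1.5 times the value reported and 7 did not. A count can stay alike while the receptors called change. Among cells of prefix 6, the calls of 3 receptors changed between P6+ and P6- cells and of 2 by Foxp3 over all cells. By Foxp3 in P6+ cells, 2 calls changed without cells holding CD8, B cell or myeloid genes. By Foxp3 over all cells the count of 2 was 1 with Foxp3 divided at 1 read, without the cell with most reads of each gene, and without cells holding CD8, B cell or myeloid genes. By Foxp3 in P6+ cells the count of 2 was 1 without the top cells. By Foxp3 in P6- cells the count of 1 was 4 among the cells of prefix 6 (3 against 8 cells) and 2 without the top cells. Between the tetramer groups with Foxp3 the count of 2 was 1 without the marker cells. With no minimum of cpm the share of genes past 2-fold in either direction was 26.4% for P6+ against P6- (56.2% as reported), 26, 36.6 and 29.4% by Foxp3 in all, P6+ and P6- cells, and 39 and 28.5% for the tetramer groups with and without Foxp3. The log2 ratio of Il15ra between P6+ and P6- cells turned to -0.01 without the top cells and -0.50 without the marker cells, and without the latter it was -0.44 by Foxp3 over all cells and -0.05 for the tetramer groups with Foxp3. Il4ra without Foxp3 turned to 6.86 against the 8 P6- cells of prefix 6, in which it was near 0. Other than the construction of these alternatives, the cause was not tested. Between P6+ and P6- cells the log2 ratio ranged from 0.50 to 1.37 for Il2ra, from 0.69 to 1.42 for Il2rb, from -1.93 to -1.24 for Il7r and from -2.33 to -0.79 for Il4ra. With Foxp3 divided at 1 read, Il2ra by Foxp3 was 0.87 over all cells and -0.56 in P6+ cells, where it was -0.30 with the division at 50 reads. At 1 read in place of 10, 32 of 42 shares of cells left their intervals. No paired analysis was possible because numbers of the cells pair no cells across groups and no value comes from a test. With 1 mouse and few cells a group, single cells decide several levels, and a receptor under 10 reads was not detectable with confidence at this depth.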
